A study of Mus musculus with 2 samples.

Results

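The 38 genes described here code for the proteins of the extracellular matrix that fills and surrounds a wound: 5 chains of fibrillar collagens, 5 chains of other interstitial collagens, 13 basement membrane genes, 3 small leucine-rich proteoglycans, 4 genes of elastic fibres and of mineral control, 6 genes of fibronectin and the matricellular proteins, and 2 cross-linking enzymes. They were chosen by gene symbol, and all 38 were found among the 31053 genes of the count tables. The cells came from injured spinal cords of mice at 5 days post injury, and their mRNA was counted by 10x Genomics 3′ sequencing (version 3 chemistry) in 1 library of HDAC3i-treated cord and 1 of Vehicle-treated cord. The labels name the treatments HDAC3i and Vehicle without further detail, and the series title names HDAC3, a histone deacetylase, an enzyme that removes acetyl groups from histones. Both groups were injured, so no uninjured cord serves as a baseline. The compound, its dose, the strain, sex and age of the mice, the kind of injury and the number of animals behind each library are not given in the sources used here.

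Matrix genes code for secreted proteins, so the mRNA shows which cell makes a protein and not where the protein lies. Fibrillar collagens form the ropes of a scar, while laminins, type IV collagen, nidogens and perlecan form the thin sheets, the basement membranes, on which endothelial cells rest and which wrap mural cells, Schwann cells and the outer surface of the cord. In an injured cord a fibrotic scar forms around vessels and meninges at the core of the lesion, and glial cells border it.

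The HDAC3i library held 3423 barcodes and 38957752 UMIs (unique molecular identifiers, each a counted mRNA molecule) and the Vehicle library 2523 barcodes and 29726813 UMIs. After filtering, 2881 and 2119 cells remained, with medians of 9601 and 10177 UMIs. These 5000 cells fell into 30 clusters, which were formed without the 38 genes, and 26 clusters took the names of 14 classes from markers that are not among the 38. Comparisons cover 11 classes, those represented by 20 cells or more in both libraries. They include 58 and 26 fibroblast-like, 132 and 82 mural-like, 424 and 310 endothelial-like, 158 and 216 Schwann-like, 437 and 472 microglia-like, 546 and 292 monocyte/macrophage-like, and 90 and 33 border-associated macrophage-like cells (HDAC3i library first, here and in all pairs below). The fibroblast label held for the sum of its markers: the 18 fibroblast markers summed to 5092 and 5291 CPM in fibroblast-like cells, and none of them was at 0, beside 661 and 799 CPM in mural-like cells and 1472 and 1427 CPM in Schwann-like cells, where 8 of the 18 were at 0. Ogn, at 337 and 298 CPM, was higher in another class, with a mean of 1034 CPM. So were Clec3b (156 and 76.1, beside 333), Pi16 (75.4 and 56.2, beside 93.7) and, on the mean, Mfap5 (421 and 278, beside 356). The others of the 18 had their highest mean in fibroblast-like cells. Of the monocyte/macrophage markers Ccr2, Ly6c2, Plac8, Chil3 and Ms4a4c also had a higher mean in another class. So did Siglech, Sall1 and Olfml3 of the microglia markers and Ngfr of the Schwann markers. Each of these lists still summed highest in its own class. The libraries shared 10 barcodes, 3 of them among the kept cells.

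Levels are CPM, the UMIs of a gene per 1000000 UMIs of all cells of the class in that library. With 1 library per group there is no replicate check: ratios compare these libraries, not the treatments, no test was possible, and the 95% intervals (exact Poisson for levels, exact conditional binomial for ratios, Clopper-Pearson for shares of cells) cover counting error only. A gene counts as measured in a class where the libraries together gave it 100 UMIs or more, and as called higher or lower where its levels differ by 1.5-fold or more. A count of 0 allows up to 3 UMIs.

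The sequences before the start sites are shown for members of 3 kinds in the comparison of the libraries in fibroblast-like cells: Bgn and Col6a3, which were called higher in the HDAC3i library, Col15a1 and Lama2, which were called lower, and Col3a1, a main scar collagen that was not called. Each is the 250 bases before the RefSeq start site on GRCm38.p6, written 5′ to 3′ along the gene's strand, and none overlaps an exon annotated in GENCODE M21. The RefSeq start of Lama2 and its window lie inside the longer GENCODE gene used for coordinates below. The RefSeq start of Col15a1 lies before the GENCODE start. Capitals mark the motifs searched on both strands: the TATA motif TATAAA, the CCAAT box CCAAT and the GC box GGGCGG, which reads CCGCCC on the other strand.
Col3a1, chr1:45311288-45311537, plus strand: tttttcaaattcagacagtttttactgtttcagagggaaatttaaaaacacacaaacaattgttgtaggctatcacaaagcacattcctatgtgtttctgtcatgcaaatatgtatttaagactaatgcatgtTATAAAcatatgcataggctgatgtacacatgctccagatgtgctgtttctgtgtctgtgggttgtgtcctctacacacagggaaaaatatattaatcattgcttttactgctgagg
Bgn, chrX:73483351-73483600, plus strand: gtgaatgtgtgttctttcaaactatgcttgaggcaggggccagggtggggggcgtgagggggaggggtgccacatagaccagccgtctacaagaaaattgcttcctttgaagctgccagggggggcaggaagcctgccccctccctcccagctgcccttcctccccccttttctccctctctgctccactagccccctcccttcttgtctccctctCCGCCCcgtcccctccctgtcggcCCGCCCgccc
Col6a3, chr1:90843972-90844221, minus strand: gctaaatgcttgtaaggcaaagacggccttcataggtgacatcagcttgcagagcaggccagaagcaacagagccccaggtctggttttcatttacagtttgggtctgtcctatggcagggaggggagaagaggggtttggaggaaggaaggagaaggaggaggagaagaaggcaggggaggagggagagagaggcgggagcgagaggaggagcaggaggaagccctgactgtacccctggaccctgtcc
Col15a1, chr4:47207762-47208011, plus strand: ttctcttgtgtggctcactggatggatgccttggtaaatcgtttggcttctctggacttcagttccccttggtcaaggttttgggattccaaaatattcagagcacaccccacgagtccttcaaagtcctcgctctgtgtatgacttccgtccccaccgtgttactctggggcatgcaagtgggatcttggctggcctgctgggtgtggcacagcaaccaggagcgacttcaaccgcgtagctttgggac
Lama2, chr10:27616943-27617192, minus strand: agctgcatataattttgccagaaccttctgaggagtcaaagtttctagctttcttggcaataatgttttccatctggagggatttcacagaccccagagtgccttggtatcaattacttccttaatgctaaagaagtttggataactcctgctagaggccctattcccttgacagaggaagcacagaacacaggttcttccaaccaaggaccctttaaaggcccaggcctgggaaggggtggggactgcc
Col3a1 holds TATAAA 117 bases before its start, Bgn holds the GC box, with the nearest copy 10 bases before its start, and the windows of Col6a3, Col15a1 and Lama2 hold none of the 3 motifs. An entry was found for 24 of the 38 members, with 30 windows, some of them of the same gene. TATAAA lies in 4 windows, beside 12.4% of all 32851 windows of the same length, CCAAT in 7, beside 33.8%, and GGGCGG in 17, beside 32.7%. These matches describe letters, not bound sites.

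Among the 11 classes compared, fibroblast-like cells had the highest level of most matrix genes. Of the 38 members, 26 were highest there in both libraries: all 5 fibrillar collagen chains, all 5 other collagens, the 3 proteoglycans, Col15a1, Col18a1, Lama2, Lamc1, Nid1, Fbln1, Fbln5, Fbn1, Sparc, Postn, Tnc, Lox and Loxl2. Mural-like cells, the pericytes and smooth muscle of vessel walls by their markers, had the highest level of Col4a1, Col4a2, Lama5 and Sparcl1. Schwann-like cells, the glia of peripheral nerve roots, led for Lamb1 and Hspg2, endothelial-like cells for Fn1, and neutrophil-like cells for Thbs1. For Lama4, Lamb2, Nid2 and Mgp the leading class differed between the libraries. These orders leave out the classes with too few cells, of which the astrocyte-like cells, 24 and 8 of them, lay above the leading class for Sparcl1 in both libraries, for Col12a1 in the Vehicle library and for Tnc in the HDAC3i library. The order of the leading class over the next was outside counting error for 33 members in the HDAC3i library and 29 in the Vehicle library.

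**Figure D1:**
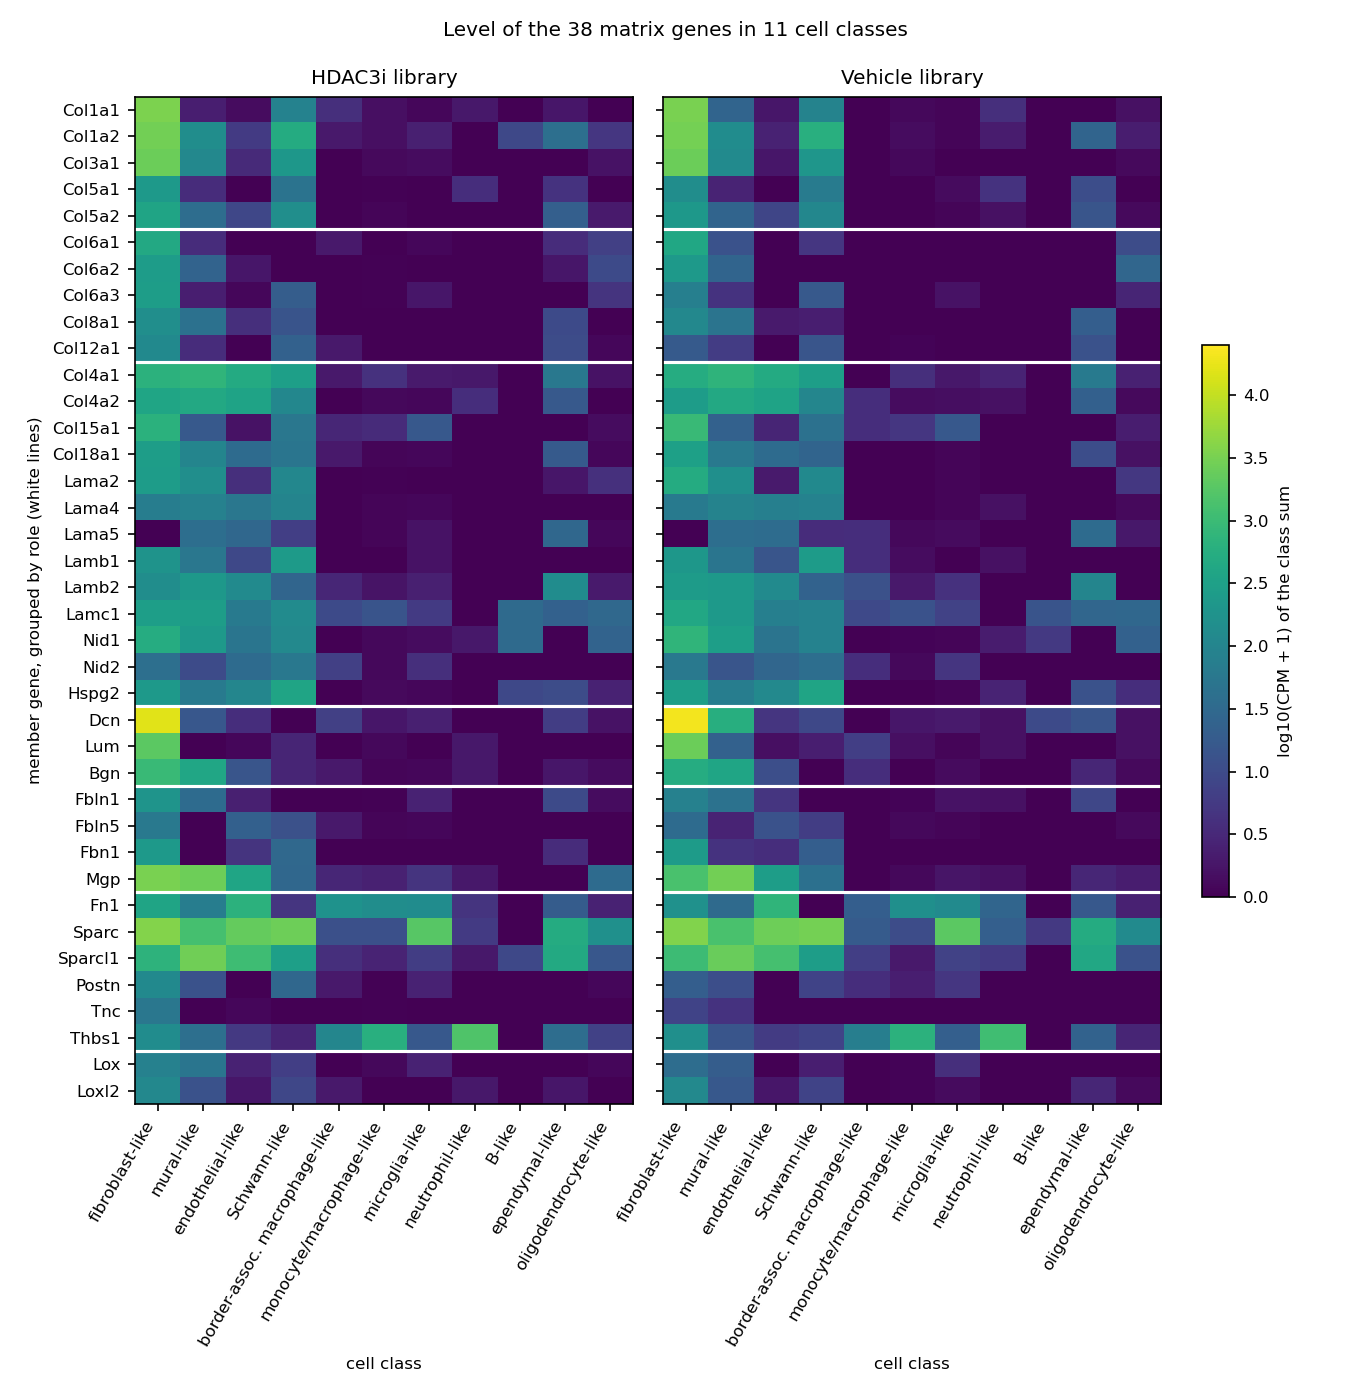
Level of the 38 matrix genes in the 11 classes compared, in the HDAC3i library (left) and the Vehicle library (right), as log10 of CPM + 1 of the class sum (colour); rows are genes grouped by role, columns are classes. The fibroblast-like column is bright for the fibrillar collagens and the proteoglycans, with Dcn at 16243 and 20618 CPM, the basement membrane rows are shared by the first 4 columns, and Thbs1 is bright in the neutrophil-like column.

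Type I collagen, the main fibre of scars, is built from the chains of Col1a1 (chr11:94936224-94953042, mm10) and Col1a2 (chr6:4504814-4541544), and both were concentrated in fibroblast-like cells. Col1a1 had 3392 CPM in the HDAC3i library and 3294 CPM in the Vehicle library there, and Schwann-like cells came next with 90.03 and 92.2 CPM. The fold between these classes was 37.7 (28.3 to 51.2) and 35.7 (27.97 to 46.3). Fibroblast-like cells thus held 97.3% and 91.04% of the Col1a1 UMIs of the named classes, although they were 84 cells in all. Col1a2 had 2859 and 2966 CPM in fibroblast-like cells and reached further into Schwann-like cells, at 514 and 585 CPM, and into mural-like cells, at 142 and 139.7 CPM. A UMI of Col1a2 was found in 62.7% and 73.6% of Schwann-like cells, and in 56% and 64.9% after thinning to 2000 UMIs per cell. Neutrophil-like cells, which should lack collagen, had a Col1a2 UMI in 0% and 0.472% of cells, with medians of 4029.5 and 6796 UMIs per cell beside 2857 and 3269 in Schwann-like cells.

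The counts of the type I chains stood in a different proportion in each class. The kit counts 3′ ends, so a UMI is a molecule whatever the length of the gene, but genes may be captured with different success, and the ratio of a pair of genes is compared here between classes only. Over both libraries there were 1.16 (1.11 to 1.22) Col1a1 UMIs per Col1a2 UMI in fibroblast-like cells, but 0.164 (0.134 to 0.2001) in Schwann-like and 0.0169 (0.000422 to 0.0982) in ependymal-like cells. Mural-like cells had 16 UMIs of Col1a1 beside 190 of Col1a2, and 13 of the 16 came from 1 cell of the Vehicle library.

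Col3a1, the type III collagen of thin fibrils (chr1:45311538-45349706), followed Col1a2 in its order of fibroblast-like, Schwann-like and mural-like cells. It had 2600.1 and 2549.6 CPM in fibroblast-like cells, 212 and 203 CPM in Schwann-like cells and 111 and 128 CPM in mural-like cells. Col5a1 and Col5a2, chains of the type V collagen that sits in the core of fibrils and limits their width, were lower in the Vehicle library than in the HDAC3i library in fibroblast-like cells. Col5a1 had 226 and 142 CPM there and 46.9 and 65.5 CPM in Schwann-like cells. Col5a2 had 376 and 225 CPM in fibroblast-like cells and 150.1 and 108 CPM in Schwann-like cells. In endothelial-like cells only the Col5a2 chain was counted, with 63 UMIs beside 0 of Col5a1.

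The other interstitial collagens were also highest in fibroblast-like cells. Type VI collagen forms beaded filaments near cells from the chains of Col6a1, Col6a2 and Col6a3. Col6a1 stood at 456 and 410.0 CPM in fibroblast-like cells and at 2.64 and 11.9 CPM in mural-like cells. Col6a2 stood at 267 and 241 CPM, with 23.7 and 25.6 CPM in mural-like cells. Col6a3 (chr1:90765923-90843971) separated the libraries most among these chains, at 276 and 79.4 CPM in fibroblast-like cells. Col8a1, a short-chain collagen of vessel walls, had 151 and 112 CPM in fibroblast-like cells, with 25 of the 34 Vehicle UMIs in 1 cell, and 42.2 and 47.7 CPM in mural-like cells. Col12a1, which binds to the surface of type I fibrils, had 90 UMIs in the HDAC3i fibroblast-like cells and 5 in the Vehicle ones, or 121 and 16.5 CPM, under the minimum for a ratio.

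Type IV collagen, the network of every basement membrane, was shared by the vessel wall, fibroblasts and Schwann cells. Its genes lie head to head on chromosome 8, Col4a1 on the minus strand (chr8:11198423-11312826) and Col4a2 on the plus strand (chr8:11312805-11449287), so that their annotated starts overlap by 22 bases. Col4a1 had 757 and 729 CPM in mural-like cells, 676 and 522 CPM in fibroblast-like cells, 483 and 498 CPM in endothelial-like cells and 298 and 294 CPM in Schwann-like cells. The lead of mural-like over fibroblast-like cells was within counting error in the HDAC3i library, at 1.12 (0.992 to 1.27), and 1.396 (1.16 to 1.69) in the Vehicle library. Col4a2 followed with 460.4 and 448 CPM in mural-like and 349 and 361 CPM in endothelial-like cells. There were 1.38 (1.32 to 1.45) Col4a1 UMIs per Col4a2 UMI in endothelial-like cells, 1.64 (1.48 to 1.81) in mural-like, 1.79 (1.58 to 2.04) in fibroblast-like and 2.81 (2.301 to 3.44) in Schwann-like cells. The proportion of the chains thus rose from the endothelial-like to the Schwann-like class.

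Col15a1 and Col18a1 code for collagens that carry sugar chains and lie at the outer face of basement membranes. Col15a1 (chr4:47208161-47313167) was at 646 and 972 CPM in fibroblast-like cells and at 54.4 and 42.8 CPM in Schwann-like cells, the next class. Col18a1, which is cut to release endostatin, was at 281 and 311 CPM in fibroblast-like, 100.3 and 59.6 CPM in mural-like and 33.5 and 33.6 CPM in endothelial-like cells.

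Laminins are built from an alpha, a beta and a gamma chain, and each class had its own set. Lama2 (chr10:26980036-27619758), the alpha chain of muscle and nerve that is missing in a congenital muscular dystrophy, had 269 and 506 CPM in fibroblast-like, 146 and 152 CPM in mural-like, 109 and 120.3 CPM in Schwann-like and only 2.91 and 1.08 CPM in endothelial-like cells. Lama4, an alpha chain of vessel laminins, was more even over these 4 classes, from 54.97 CPM in the HDAC3i endothelial-like cells to 93.8 CPM in the HDAC3i Schwann-like cells. There were 4.84 (3.75 to 6.31) Lama2 UMIs per Lama4 UMI in fibroblast-like cells and 0.0328 (0.0193 to 0.0524) in endothelial-like cells. Lama5, the other vessel alpha chain, had 38.3 and 37.5 CPM in mural-like, 28.9 and 34.7 CPM in endothelial-like and 27.9 and 33.1 CPM in ependymal-like cells. It was the only member with no UMI in the fibroblast-like cells of both libraries, which allows up to 4.04 and 9.92 CPM.

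The beta chains split the classes more sharply. Lamb1 had 248 and 261 CPM in Schwann-like and 178 and 208 CPM in fibroblast-like cells, but 7.91 and 13.5 CPM in endothelial-like cells. Lamb2 had 219 and 233 CPM in mural-like, 145 and 255 CPM in fibroblast-like, 125 and 127 CPM in endothelial-like, 139 and 99.4 CPM in ependymal-like and only 26.3 and 22.7 CPM in Schwann-like cells. Schwann-like cells therefore held 10.5 (7.29 to 15.8) Lamb1 UMIs per Lamb2 UMI, fibroblast-like cells 1.05 (0.858 to 1.296), mural-like cells 0.234 (0.178 to 0.304) and endothelial-like cells 0.0822 (0.0653 to 0.102). In ependymal-like cells 210 UMIs of Lamb2 stood beside 0 of Lamb1. Lamc1, the gamma chain common to most laminins, was spread over fibroblast-like cells at 294 and 437 CPM, mural-like cells at 285 and 244 CPM, Schwann-like cells at 133 and 88.2 CPM and endothelial-like cells at 64.96 and 79.7 CPM.

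The linkers of the sheet were divided too. Nid1, a nidogen that ties laminin to type IV collagen, had 539 and 757 CPM in fibroblast-like, 231 and 289.7 CPM in mural-like, 118 and 86.9 CPM in Schwann-like and 50.6 and 48.5 CPM in endothelial-like cells. Nid2, its relative, was low throughout, and its order over Schwann-like cells at 56.3 and 37.4 CPM, fibroblast-like cells at 39.05 and 59.5 CPM and endothelial-like cells at 33.1 and 27.4 CPM was within counting error at the top. Hspg2, which codes for the heparan sulphate proteoglycan perlecan, was led by Schwann-like cells with 364 and 374 CPM. Fibroblast-like cells followed with 242 and 288 CPM and endothelial-like cells with 104 and 115 CPM.

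The small leucine-rich proteoglycans, which bind collagen fibrils and space them, came in a restricted and a shared form. Dcn, or decorin (chr10:97479609-97518143), had 16243 and 20618 CPM in fibroblast-like cells, which held 99.5% and 94.1% of its UMIs. Lum, or lumican, had 1943 and 2629 CPM there and at most 22.2 CPM in any other class compared, a mural-like value from 13 UMIs of 1 cell. Both stood lower in the HDAC3i library, but by less than 1.5-fold. Bgn, or biglycan (chrX:73483602-73495933), had 952 and 529 CPM in fibroblast-like cells and was high in mural-like cells as well, at 394 and 380.0 CPM.

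Among the genes of elastic fibres and mineral control, Mgp was the gene that fibroblast-like and mural-like cells shared. Mgp, matrix Gla protein, blocks the calcification of vessel walls (chr6:136872435-136875823). It had 3320.5 and 1392 CPM in fibroblast-like cells, 2724 and 2919 CPM in mural-like cells and 381 and 277 CPM in endothelial-like cells. The mural-like value was close in both libraries, whereas the fibroblast-like value lay above it in the HDAC3i library and below it in the Vehicle library. Fbn1, fibrillin, the core of microfibrils, had 232 and 255 CPM in fibroblast-like and 30.01 and 20.04 CPM in Schwann-like cells. Fbln1, a fibulin that binds fibronectin and basement membranes, had 187 and 85.98 CPM in fibroblast-like and 32.98 and 44.3 CPM in mural-like cells. Fbln5, a fibulin needed to assemble elastic fibres, had 59.2 and 33.1 CPM in fibroblast-like and 21.2 and 11.7 CPM in endothelial-like cells.

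Fibronectin and the matricellular genes included the members that myeloid cells held at the highest levels. Fn1 (chr1:71585520-71653200), fibronectin, the adhesive protein laid down early in a wound, was led by endothelial-like cells with 679 and 744 CPM, and a UMI was found in 92.2% and 92.9% of them. Fibroblast-like cells had 374 and 165 CPM, monocyte/macrophage-like cells 145 and 152 CPM, and microglia-like cells 138 and 125 CPM. Neutrophil-like cells had 3.67 and 26.6 CPM, the latter with 42 of its 46 UMIs in 1 cell, and Schwann-like cells had 2 and 0 UMIs. Thbs1, thrombospondin, which activates latent TGF-beta, was highest in neutrophil-like cells at 1543 and 1101 CPM and next in monocyte/macrophage-like cells at 593 and 668 CPM. Fibroblast-like cells had 135 and 152 CPM of it, but 1 Vehicle cell held 38 of the 46 UMIs of its library. Without the cell with most Thbs1 UMIs in each library the ratio of the HDAC3i to the Vehicle library was 3.55 (1.71 to 8.52), beside 0.885 (0.618 to 1.28) with them.

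Sparc, a collagen-binding protein, was shared by several classes. It had 3860.4 and 3743 CPM in fibroblast-like, 2707 and 3030.4 CPM in Schwann-like, 2317 and 2689 CPM in endothelial-like, 1786 and 1981 CPM in microglia-like and 1258 and 1380.4 CPM in mural-like cells. Monocyte/macrophage-like cells had only 10.8 and 9.74 CPM, so that Sparc separated the myeloid classes. Sparcl1, or hevin, a relative that astrocytes secrete, had 2800.4 and 2505 CPM in mural-like, 1074 and 1283 CPM in endothelial-like and 697 and 1048 CPM in fibroblast-like cells. Postn, periostin, a scar protein that binds collagen and integrins, had 89 and 6 UMIs in fibroblast-like cells, or 119.8 and 19.8 CPM. Tnc, tenascin-C, a protein of wounds that weakens adhesion, had 41 and 2 UMIs there, or 55.2 and 6.61 CPM. Both were too low for a ratio by the 100-UMI rule.

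The cross-linking enzymes were low and lay with the fibroblast-like class. Lox, lysyl oxidase, which joins collagen and elastin chains, had 86.2 and 36.4 CPM in fibroblast-like and 50.1 and 18.7 CPM in mural-like cells, from 64 and 11 and from 38 and 11 UMIs. Loxl2, which acts on type IV collagen, had 114 and 119 CPM in fibroblast-like cells and at most 15.3 CPM in any other class compared.

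Fibroblast-like cells had the most members measured and the most members called between the libraries. Over all cells of this class the main collagens were level, but other members were not. Of the 30 members measured there, 7 were at least 1.5-fold higher in the HDAC3i library (Col5a1, Col5a2, Col6a3, Bgn, Fbln1, Mgp and Fn1), beside 13.7% of all 1471 genes measured in the class. The share of members was 23.3%. Another 4 were at least 1.5-fold lower (Col15a1, Lama2, Lamb2 and Sparcl1), or 13.3%, beside 5.3% of all genes. The other 19 members lay within 1.5-fold. The calls rest on few cells: without 8 HDAC3i cells and 1 Vehicle cell rich in Fn1, described below, none of the 25 members then measured was higher and 1 was lower, while 3 of the 7 (Col6a3, Fbln1 and Fn1) were no longer measured. The share of all genes called without these cells was not counted. The median log2 ratio was -0.01 over the 30 members and 0.14 over all genes measured in the class.

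**Figure D2:**
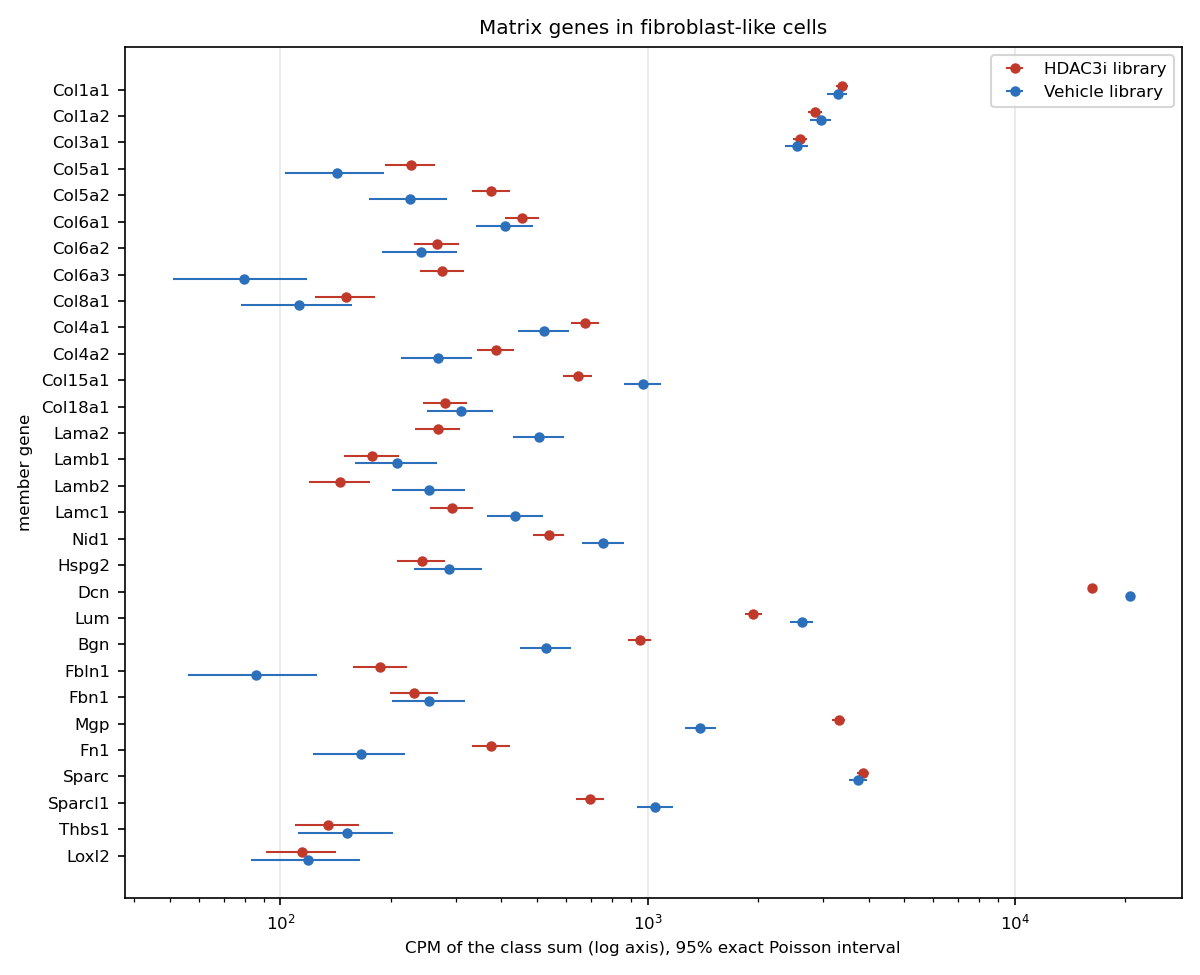
Levels of the 30 measured members in fibroblast-like cells of the HDAC3i library (58 cells, red) and the Vehicle library (26 cells, blue), in CPM of the class sum on a log axis, with exact Poisson 95% intervals. The points of Col1a1, Col1a2, Col3a1 and Sparc overlie each other, those of Col6a3 (276 and 79.4 CPM) and Mgp (3320.5 and 1392 CPM) lie apart with red on the right, and that of Lama2 (269 and 506 CPM) with blue on the right.

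Over all cells of the class, the fibrillar collagens that make the bulk of a scar did not separate the libraries. The ratio was 1.03 (0.957 to 1.11) for Col1a1, 0.964 (0.891 to 1.04) for Col1a2 and 1.02 (0.938 to 1.11) for Col3a1. Without the Fn1-rich cells these ratios lay below 1, as given below. The minor chains separated the libraries over all cells, with 1.59 (1.13 to 2.28) for Col5a1 and 1.67 (1.28 to 2.21) for Col5a2. Type VI collagen was split between its chains: Col6a3 had the largest ratio of the 30 measured members, 3.48 (2.27 to 5.55), while Col6a1 had 1.11 (0.904 to 1.38) and Col6a2 1.104 (0.8404 to 1.47). Of the proteoglycans Bgn was higher, at 1.799 (1.51 to 2.15), while Dcn had 0.788 (0.764 to 0.812) and Lum 0.739 (0.677 to 0.807). Mgp had 2.39 (2.15 to 2.65), Fn1 2.26 (1.67 to 3.12) and Fbln1 2.18 (1.42 to 3.45), but 1 Vehicle cell held 20 of the 26 Fbln1 UMIs of its library. Without the cell with most UMIs of the gene in each library the ratio was 6.003 (2.66 to 16.8) for Fbln1, 21.7 (8.35 to 80.2) for Fn1 and 3.72 (1.87 to 8.42) for Col8a1, which had 1.34 (0.907 to 2.03) with them. This step is uneven between the libraries: for Fn1 it took 56 of 278 HDAC3i UMIs and 46 of 50 Vehicle UMIs. Without the Fn1-rich cells described below Col8a1 lay on the other side of 1, at 0.561 (0.317 to 0.993). By role, 2 of 5 measured fibrillar chains, 1 of 4 other collagens, 1 of 3 proteoglycans, 2 of 3 elastic and mineral genes and 1 of 4 fibronectin and matricellular genes were called higher, while 3 of the 10 basement membrane genes measured were called lower and none higher. Of all genes measured in the class 13.7% were higher and 5.3% lower. Lama2 had 0.532 (0.429 to 0.661), Lamb2 0.571 (0.422 to 0.775), Col15a1 0.665 (0.574 to 0.771) and Sparcl1 0.665 (0.577 to 0.768). Lamc1 at 0.672 (0.539 to 0.841) and Nid1 at 0.711 (0.603 to 0.8404) lay on the same side without reaching 1.5-fold, whereas Col4a1 at 1.29 (1.08 to 1.56) and Col4a2 at 1.44 (1.12 to 1.87) lay on the other.

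**Figure D3:**
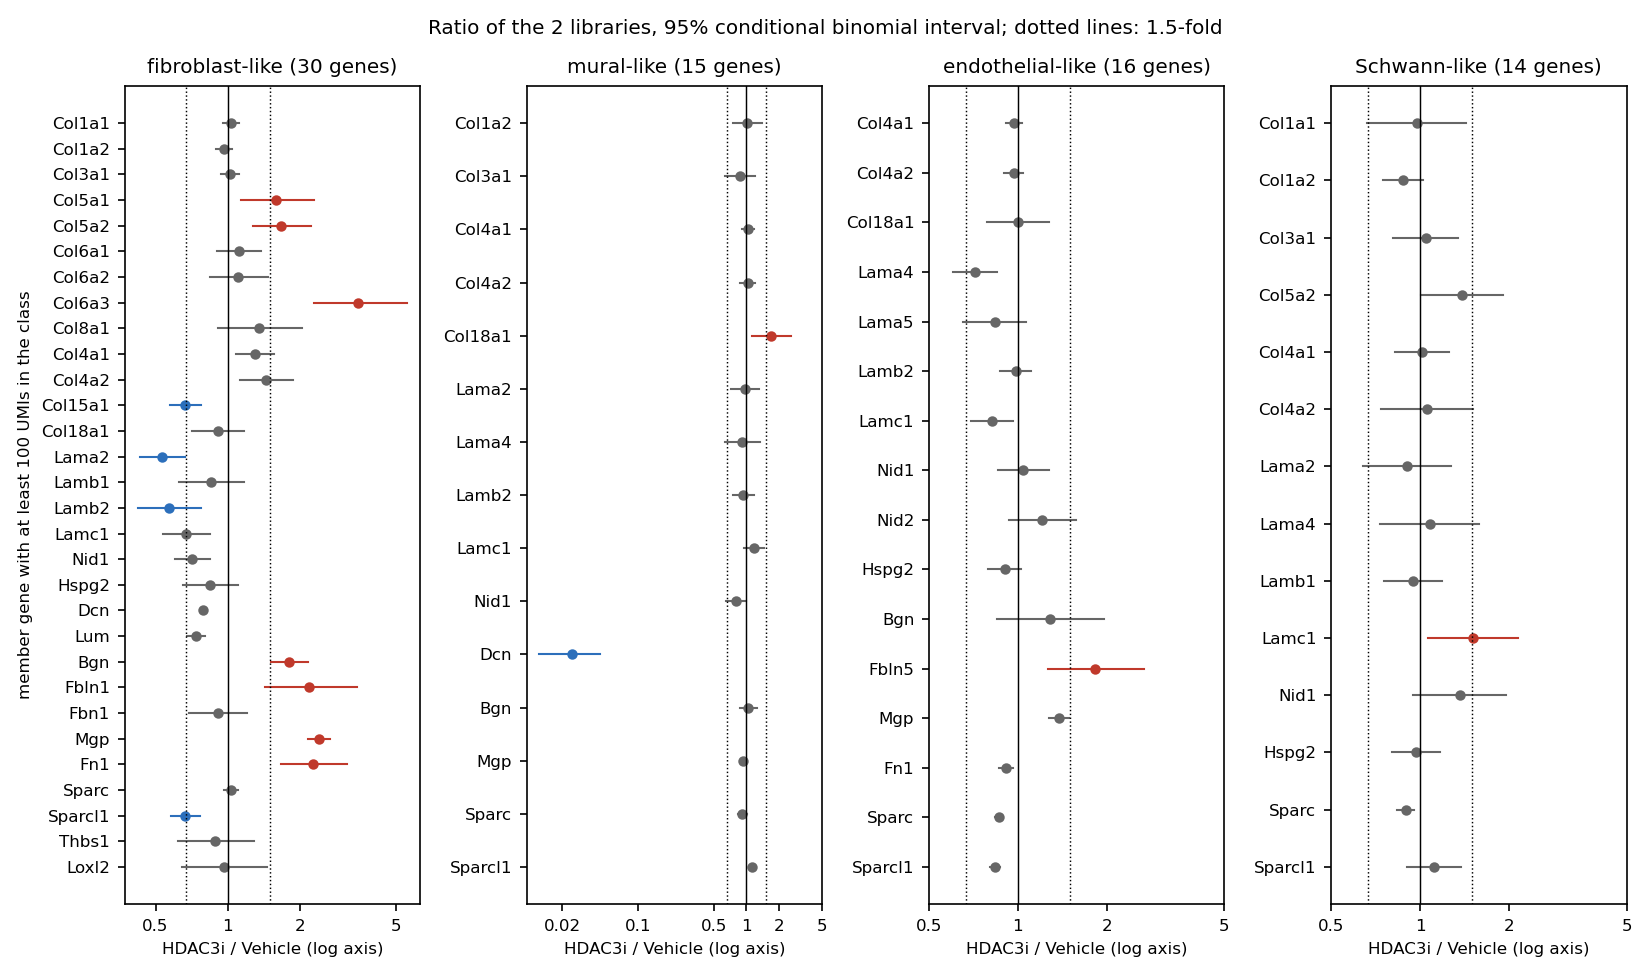
Ratio of the HDAC3i library over the Vehicle library for each measured member (points, log axes that differ in range) with 95% conditional binomial intervals (lines), in fibroblast-like, mural-like, endothelial-like and Schwann-like cells. Red and blue points are at least 1.5-fold higher and lower. In fibroblast-like cells 11 of 30 points lie outside the dotted lines, and in the other 3 classes 4 points do, among them Dcn in mural-like cells, whose Vehicle value rests on 1 cell.

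A few cells carried most of the members that were higher. In the HDAC3i library 8 of the 58 fibroblast-like cells had at least 10 Fn1 UMIs, from 12 to 56, a limit chosen after their values were seen. A further 2 cells had 5 to 9 Fn1 UMIs and 37 had none. In the Vehicle library 1 of 26 cells passed the limit, with 46 of the 50 Fn1 UMIs of its class, and 21 had none. The 8 cells held 34.5% of all UMIs of the HDAC3i fibroblast-like cells, but 84.3% of those of Postn, 75.9% of Col8a1, 73.2% of Tnc, 72.2% of Col6a3, 64.03% of Fbln1, 63.95% of Fbn1, 62.9% of Bgn, 62.9% of Mgp and 62.5% of Col5a1. They held 53.9% of the Col1a1 UMIs, and their Col1a1 level was 5300.0 CPM beside 2387 CPM in the other 50 cells. Dcn ran the other way, at 5183 CPM beside 22068 CPM, and so did Lama2, at 109 beside 354 CPM, and Sparcl1, at 304 beside 905 CPM.

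**Figure D4:**
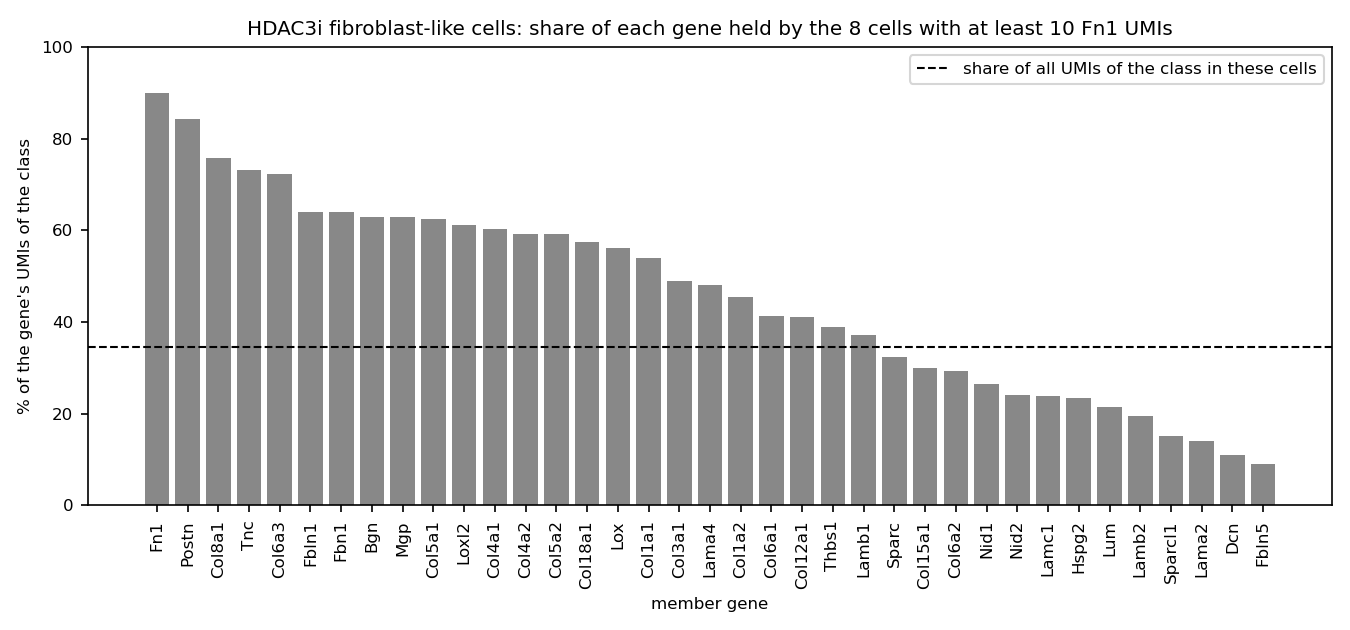
Share of each member's UMIs in the HDAC3i fibroblast-like cells that the 8 cells with at least 10 Fn1 UMIs hold, in percent (bars), for the 37 members with a UMI in the class. The dashed line is their share of all UMIs, 34.5%. Fn1 itself defines the cells, Postn and Col8a1 stand highest after it at 84.3% and 75.9%, and Fbln5 and Dcn lowest at 9.09% and 11.01%.

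These 8 cells were also deeper, with a median of 30409.5 UMIs beside 9900.5 in the other 50 cells, and their mural markers summed to 2244 CPM beside 939 CPM and their fibroblast markers to 3770.1 CPM beside 5789 CPM. Over the whole class the 14 mural markers summed to 1389.6 and 622 CPM, with 2 of them at 0. The part of these marker and depth differences in the ratios was not tested. Without the cells of at least 10 Fn1 UMIs, 8 and 1 of them, no member was called higher in the HDAC3i library, and 1 was called lower, Col18a1, at 183 and 329.9 CPM, a ratio of 0.555 (0.409 to 0.752). The ratio of Mgp was then 1.31 (1.16 to 1.48), that of Bgn 1.06 (0.857 to 1.31), that of Col5a2 0.999 (0.729 to 1.38) and that of Lama2 0.694 (0.552 to 0.874). Several directions turned. Col4a1 had 0.744 (0.599 to 0.926), on the other side of 1 from its value with these cells, and Col4a2 0.875 (0.649 to 1.19). Dcn came to 1.05 (1.02 to 1.08) and Lum to 0.998 (0.905 to 1.102). Col1a1 had 2387 and 3365 CPM without these cells, a ratio of 0.709 (0.6499 to 0.774). The ratio of Col1a2 was 0.744 (0.681 to 0.814) and that of Col3a1 0.767 (0.696 to 0.846). Of the members under 100 UMIs, Col6a3 had 1.39 (0.843 to 2.36) and Fbln1 1.08 (0.659 to 1.805). Intervals above 1 were found for Col12a1 at 5.94 (2.39 to 19.1), Fbln5 at 2.804 (1.29 to 6.94) and Lox at 3.93 (1.37 to 15.4). Fn1, which defines the cells left out, had 28 and 4 UMIs in the rest, a ratio of 3.93 (1.37 to 15.4). Col8a1 lay on the other side of 1, at 0.561 (0.317 to 0.993). After thinning every cell to 2000 UMIs, 10 members were left to measure, of which 1 was higher, Mgp, and none lower.

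In mural-like cells the members were close to level between the libraries. Of the 15 measured, Col18a1 was called higher, at 100.3 and 59.6 CPM, a ratio of 1.68 (1.11 to 2.59), beside 2.04% of the 2204 genes measured in the class. Dcn was called lower, at 14.5 and 583 CPM, beside 2.22% of all genes. In the Vehicle library 1 mural-like cell held 325 of the 342 Dcn UMIs, and without the highest cell of each library the ratio was 0.309 (0.108 to 0.784). Dcn is over 10 times higher in fibroblast-like cells, which is taken here as a sign of possible free RNA. Neutrophil-like cells had 0 and 1 Dcn UMIs, and the source of the Dcn UMIs in that 1 mural-like cell was not tested. The call for Col18a1 was lost with a stricter cell filter, with doublets kept and with each cell weighted alike. Mgp, at 0.933 (0.875 to 0.995), Col4a1, at 1.04 (0.914 to 1.18), and Sparcl1, at 1.12 (1.05 to 1.196), lay within 1.5-fold.

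In endothelial-like cells 16 members were measured, and Fbln5 was called higher, at 21.2 and 11.7 CPM, a ratio of 1.82 (1.26 to 2.67), beside 1.47% of 7542 genes. Its UMIs came from 20 and 8 cells, and the call was lost without the 5% of cells with most member UMIs. No member was called lower, beside 1.05% of all genes. The members of highest count lay within 1.5-fold: Sparc had 0.862 (0.839 to 0.885), Sparcl1 0.837 (0.804 to 0.871), Col4a1 0.969 (0.911 to 1.03) and Fn1 0.912 (0.867 to 0.9598). Of these intervals only that of Col4a1 includes 1, and the others lie below it. Lama4 was the lowest of the 16 at 0.714 (0.602 to 0.848), from 54.97 and 76.95 CPM.

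In Schwann-like cells 14 members were measured and Lamc1 was called higher, at 133 and 88.2 CPM, a ratio of 1.51 (1.06 to 2.14) that just reached the limit and was lost without the cell with most Lamc1 UMIs in each library, beside 2.44% of 2048 genes. None was called lower, beside 2.69% of all genes. Col1a2 had 0.878 (0.752 to 1.02), Col3a1 1.04 (0.811 to 1.34), Lamb1 0.9502 (0.756 to 1.19) and Hspg2 0.973 (0.806 to 1.17). These intervals all include 1.

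The myeloid classes held few members. In microglia-like cells 4 were measured (Sparc, Fn1, Thbs1 and Col15a1) and none was called, beside 0.976% of 7170 genes higher and 1.45% lower. Sparc had 1786 and 1981 CPM, a ratio of 0.902 (0.877 to 0.927). In monocyte/macrophage-like cells 4 were measured (Thbs1, Fn1, Lamc1 and Sparc) and none was called, beside 1.38% of 8091 genes higher and 1.72% lower. Thbs1 there had a ratio of 0.887 (0.856 to 0.918) and Fn1 0.951 (0.884 to 1.02). In border-associated macrophage-like cells, which sit at vessels and meninges, 2 were measured and Fn1 was called higher, at 175 and 19.8 CPM, beside 11.7% of 1785 genes, while no member was called lower, beside 10.2%. That rests on 181 UMIs in 16 of 90 cells and 7 UMIs in 1 of 33 cells, and neutrophil markers summed to 149 and 2147 CPM in the class, whose part in the ratio was not tested.

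Of the remaining classes, Thbs1 was the only member measured in neutrophil-like cells, at 1.401 (1.31 to 1.497), and was not called, beside 5.04% of 2382 genes higher and 1.93% lower. In ependymal-like cells Sparc, Sparcl1 and Lamb2 were measured and none was called, beside 2.01% and 1.79% of 2842 genes. In oligodendrocyte-like cells 6 were measured, Mgp was called higher at 32.9 and 1.21 CPM, beside 1.17% of 6911 genes, and Col6a2 lower at 8.54 and 26.9 CPM, beside 0.984%. Both are over 10 times higher in another class in the HDAC3i library, the sign used here for possible free RNA, which was not tested. In the Vehicle library Col6a2 was 8.96 times higher in fibroblast-like than in oligodendrocyte-like cells. Neutrophil-like cells had 0.918 and 0.578 CPM of Mgp. The 158 Mgp UMIs of the HDAC3i library lay in 10 of 386 cells, 97 of them in 1 cell. Col6a2 UMIs lay in 12 of 386 and 19 of 205 oligodendrocyte-like cells and in none of the neutrophil-like, T/NK-like or microglia-like cells. No member was measured in B-like cells, where 4.08% of 417 genes were higher and 11% lower.

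Within the mural-like class the clusters made different matrix. Cluster 8, led by Vtn, Rgs5, Higd1b and Kcnj8 (96 and 53 cells), had 4220.4 and 4955 CPM of Mgp, and cluster 20, led by the contractile genes Acta2, Tagln and Myh11 (36 and 29 cells), 685 and 509.8 CPM. Lama2 had 238 and 267 CPM in cluster 8 and 21.8 and 14.9 CPM in cluster 20, and Nid1 361 and 465 against 52.97 and 81.9 CPM. Col4a1, at 915 and 1050.2 against 542 and 349.8 CPM, and Lamc1, at 421 and 380.5 against 99.7 and 81.9 CPM, were higher in cluster 8 as well. Sparcl1 was higher in cluster 20, at 4378 and 3680.1 against 1642 and 1512 CPM. Lamb2 was near level, at 206 and 198 against 237 and 275 CPM.

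Among the endothelial-like clusters, Fbln5 and Mgp were highest in cluster 5, whose leading genes include Tm4sf1 and Ly6a (156 and 104 cells). It held 100 of the 102 and 43 of the 43 Fbln5 UMIs of the class, and had 806 and 787 CPM of Mgp beside 258 and 87.1 CPM in cluster 17 and 3.77 and 18.04 CPM in cluster 3. Col18a1 was likewise at 74.9 and 83.9 CPM in cluster 5 and at 7.004 and 14.6 CPM in cluster 3. Fn1 was highest in cluster 17, whose leading genes include Tmem252, Slc38a5 and Vcam1 (45 and 27 cells), at 977 and 998 CPM, beside 648 and 689.8 CPM in cluster 3 and 551 and 649 CPM in cluster 5. Cluster 17 also separated the libraries, with the higher value in the HDAC3i library for Mgp, given above, and in the Vehicle library for Sparcl1, at 692 and 1450.5 CPM, and for Sparc, at 1539.8 and 2619.8 CPM.

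In Schwann-like cells the fibrillar collagens stood at higher levels in cluster 15, whose leading genes include Scn7a, Fxyd1 and Sostdc1 (30 and 47 cells). Their levels were lower in cluster 4, whose leading genes include Ncmap and Prx (128 and 169 cells). Cluster 4, with more cells, still held more of the Col1a2 UMIs, 193 and 312 beside 81 and 126 in cluster 15. Col1a1 had 444 and 391 CPM in cluster 15 and 11.5 and 18.3 CPM in cluster 4. Col3a1 had 815 and 829 against 77.9 and 48.3 CPM, and Sparcl1 1661 and 1382 against 9.17 and 4.999 CPM. The chain Col1a2 was high in both, at 836 and 849.6 and at 442 and 519.9 CPM, and so was Lamb1, at 299 and 276 and at 236 and 257 CPM. The low Col1a1 beside Col1a2 of the Schwann-like class was thus more marked in cluster 4.

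**Figure D5:**
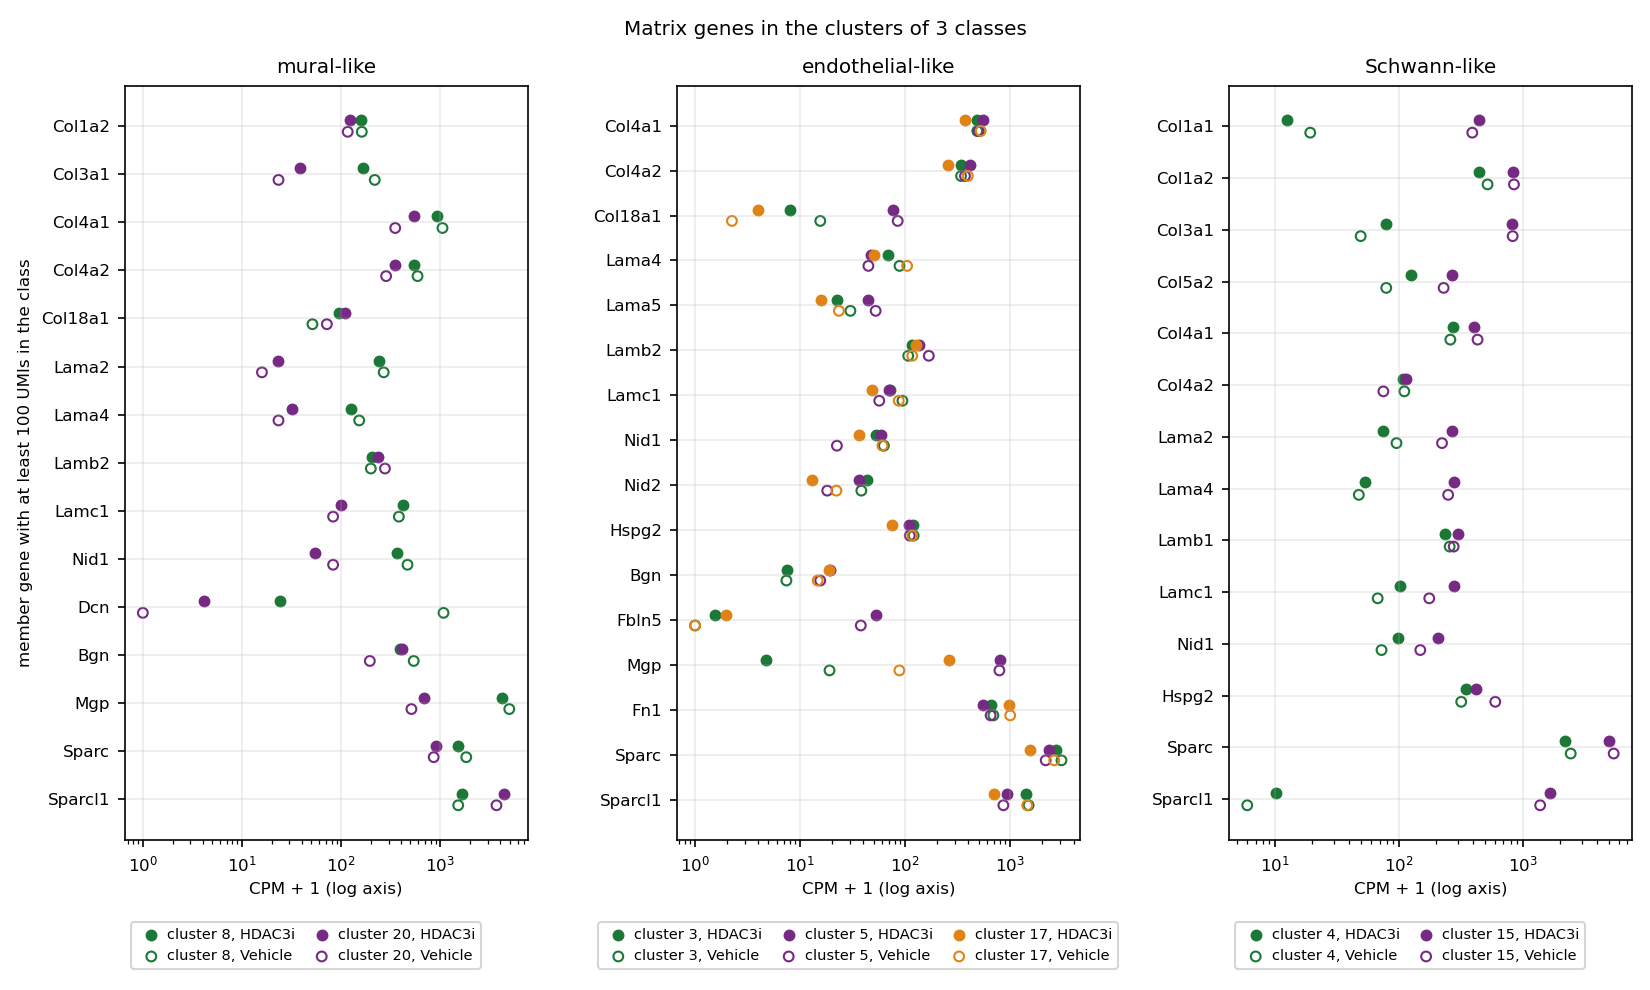
Levels of the measured members in the clusters of mural-like, endothelial-like and Schwann-like cells, as CPM + 1 on log axes (colour: cluster; filled: HDAC3i library; open: Vehicle library). In each library cluster 8 stands right of cluster 20 for Mgp, Lama2 and Nid1, cluster 5 right of clusters 3 and 17 for Fbln5 and Mgp, and cluster 15 right of cluster 4 for Col1a1, Col3a1 and Sparcl1, whereas the points of Lamb1 in the Schwann-like clusters lie close together.

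In the monocyte/macrophage-like class the level of Fn1 was higher in the small cluster 18, led by the monocyte genes Plac8, Chil3 and Ly6c2 (29 and 40 cells). Fn1 had 1701 and 1224 CPM there and 107 and 71.9 CPM in cluster 0, led by Spp1 and Gpnmb (517 and 252 cells). Thbs1 had 1927 and 2065 CPM in cluster 18 and 560.4 and 564 CPM in cluster 0. Within each cluster the HDAC3i value of Fn1 was thus the higher, while the class as a whole was level, with 29 of 546 cells in cluster 18 in the HDAC3i library and 40 of 292 in the Vehicle library.

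The genes around the members were followed in 3 lists: 25 genes of collagen synthesis and processing, 24 matrix receptors and 56 other matrix genes. In fibroblast-like cells none of the 12 measured processing genes and none of the 4 measured receptors was called. Of the 21 other matrix genes measured there, 6 were higher and 2 lower, beside 13.7% and 5.3% of all genes measured in the class. Those with most UMIs were Tgfbi, a collagen-binding protein, at 999 and 1601 CPM, a ratio of 0.624 (0.556 to 0.701), Spp1, osteopontin, which is over 10 times higher in another class and is possible free RNA, at 1.84 (1.504 to 2.27), and Cthrc1, a gene of collagen-making fibroblasts, at 349 and 155 CPM, a ratio of 2.24 (1.64 to 3.13). Ctgf, a matricellular gene named after its values were seen, had 295 and 36.4 CPM there, a ratio of 8.11 (4.44 to 16.5), and was the only one of 11 measured other matrix genes called higher in mural-like cells, at 243 and 119 CPM, a ratio of 2.03 (1.54 to 2.72). None was lower there, and none of the 4 processing genes and 8 receptors measured in mural-like cells was called. Among all genes measured in mural-like cells 2.04% were higher and 2.22% lower.

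In endothelial-like cells Npnt, nephronectin, an integrin ligand of basement membranes, was the only gene called of the 3 lists, at 26.9 and 16.8 CPM, a ratio of 1.599 (1.17 to 2.201), out of 33 measured. Among all genes measured in this class 1.47% were higher and 1.05% lower. In Schwann-like cells 16 were measured, of which Cyr61, a matricellular gene, was lower at 204 and 387 CPM, a ratio of 0.528 (0.419 to 0.6598), and Spp1, possible free RNA, higher at 2.12 (1.68 to 2.69). Among all genes measured there 2.44% were higher and 2.69% lower. In microglia-like cells 26 were measured, of which the laminin receptor chain Itga6 was lower at 88.6 and 141 CPM, a ratio of 0.6301 (0.5598 to 0.708). The same held for Spp1 at 0.464 (0.458 to 0.469), for Col27a1, a minor fibrillar collagen, at 0.655 (0.564 to 0.759), and for Ecm1, possible free RNA, at 0.594 (0.398 to 0.873). Among all genes measured in microglia-like cells 0.976% were higher and 1.45% lower. In monocyte/macrophage-like cells 27 were measured and the proteoglycan Vcan was the only gene called, lower at 0.534 (0.384 to 0.742). Among all genes measured there 1.38% were higher and 1.72% lower. Vcan is labelled possible free RNA only by its level in another class, and this was not tested. Clusters 0 and 18, whose shares of the class differed between the libraries as given above, were not compared for Vcan.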

How the data were processed

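Single cells of injured mouse spinal cord were measured in 1 HDAC3i and 1 Vehicle library. The authors deposited UMI counts per gene and barcode, and the file headers name Cell Ranger 3.0.2 as their source. The submitters' processing notes also name Seurat and mm10. Gene coordinates are mm10, from GENCODE M21. The members, marker lists and gene lists were chosen with earlier results of these data known.

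Barcodes under 500 genes or 1000 UMIs, or above 15% mitochondrial UMIs, were dropped. Scrublet (scanpy 1.11.5) marked 17 and 6 barcodes at its automatic threshold, too few, so the highest-scoring 0.8% per 1000 barcodes (94 and 51) were left out, a choice made after that result. Both libraries were clustered together without the 38 members (2000 variable genes, 30 components, 20 neighbours with scikit-learn 1.9.0, Leiden with leidenalg 0.10.2 at resolution 1). A cluster was named where its marker score reached 2.5, led the next by 0.5 and rested on 3 markers of at least 20 CPM. UMIs were summed per library and class. Counts covered the members and all genes with at least 100 UMIs. The calculation was tested on simulated data. All members are named, and from the other lists up to 3 genes per class past 1.5-fold with most UMIs. Alternatives changed the cell filter, doublets, clustering, class names, depth, weighting, top cells and UMI minimum.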

Additional observations from a re-analysis of the deposited data

How the results depend on the processing

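No paired analysis was possible because each group is 1 library, and for the same reason no library could be left out. Counts of members past 1.5-fold are given against the main value. The shares of all genes past 1.5-fold were not counted for the alternatives. In fibroblast-like cells 7 members were higher, and 1 after thinning to 2000 UMIs, 3 without the 5% of cells with most member UMIs and 12 at a minimum of 20 UMIs, while 4 were lower, and 2 with doublets kept, 0 after thinning and 2 without the 5% of cells. Without the cells of at least 10 Fn1 UMIs, an alternative chosen after seeing the data, 0 were higher and 1 lower. On the log2 scale the Col5a1 ratio changed direction to -0.45 after thinning and to -0.067 without the Fn1-rich cells, where Col5a2 came to -0.0016. In mural-like cells 1 was higher, and 0 with the stricter filter, with doublets kept, after thinning, with each cell weighted alike and without the 5% of cells, 2 with classes named cell by cell from their own markers and 4 at 20 UMIs. There 1 was lower, and 2 with doublets kept and 0 by own markers, after thinning and without the 5% of cells. In endothelial-like cells 1 was higher, and 3 with cells weighted alike, 0 without the 5% of cells, and 2 at 20 UMIs or without the 1 cell with most UMIs of the gene in each library, the latter also chosen after seeing the data, while 0 were lower, and 2 at 20 UMIs. In Schwann-like cells 1 was higher, and 0 with doublets kept, after thinning, with cells weighted alike, without the 5% of cells and without the 1 top cell, 3 by own markers and 5 at 20 UMIs. In microglia-like cells 0 were higher and 0 lower, and 1 higher at 20 UMIs, 1 lower without the 5% of cells and 3 lower at 20 UMIs. In monocyte/macrophage-like cells 0 were higher and 0 lower, and 2 higher and 1 lower at 20 UMIs and 2 lower by own markers, where the class held 308 cells in place of 838. Beyond thinning, which leaves fewer UMIs and members, the causes were not tested. Of the other counts and class sizes 142 stayed close to the main value, as did 139 single-gene values, and 34 single-gene values moved by more than their interval. With 26 Vehicle fibroblast-like cells, members under 100 UMIs there, such as Postn, Tnc and Col12a1, had no ratio.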

Other observations

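Classes under 20 cells in a library were given no ratio. Astrocyte-like cells (24 in the HDAC3i library and 8 in the Vehicle library) had 106 and 66.3 CPM of Col12a1 and 4260.1 and 3350.4 CPM of Sparcl1. They had 77.5 CPM of Tnc in the HDAC3i library and no Tnc UMI in the Vehicle library, which allows up to 99.5 CPM. Unnamed cluster 11, led by haemoglobin genes beside endothelial genes (85 and 42 cells), had 647 and 492 CPM of Fn1, 433 and 265 CPM of Col4a1 and 2011 and 1762 CPM of Sparc. Unnamed cluster 16, led by C1qa and C1qc and by genes of dividing cells such as Top2a (44 and 30 cells), had 395 and 652 CPM of Fn1, 728 and 776 CPM of Sparc and 208 and 268 CPM of Thbs1. Within the microglia-like class cluster 10, led by Spp1, had 821 and 912 CPM of Sparc beside 1867 and 2154 CPM in cluster 1, and 317 and 227 CPM of Fn1 beside 123 and 109 CPM.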
